A study of Mus musculus with 10 samples.

Results

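Cytokine receptors and the JAK kinases bound to them were described here as 37 mouse genes, taken by symbol from a list of receptor subunits and kinases. All 37 were found among the 34932 genes to which transcripts in the files could be matched. By family, 9 were grouped with the common gamma chain, 8 with gp130 and the IL-12 receptor and 3 with the beta common chain. The others were 6 for interferons and IL-10, 6 for IL-1, IL-18 and IL-33, 1 for IL-17 and 4 JAK kinases. The first group includes Il13ra1 of the IL-13 receptor, although IL-13 is not among the gamma chain ligands named below. RNA came from Pmel CD8+ T cells, whose transgenic receptor recognizes the melanoma antigen gp100, recovered from B16-F10 melanoma in Ly5.1 mice. In the libraries labelled MIT-BATF (n = 5 mice) the transferred cells carried the retroviral vector MSCV-IRES-Thy1.1 with the mouse BATF reading frame, and in those labelled MIT-Empty (n = 5 mice) they carried the same vector without an insert. Cells of both groups came from Pmel Thy1.2/Thy1.2 spleens, were activated for 24 h by gp100 peptide and IL-2 (10 IU/mL) before transduction, and were later grown in IL-7 and IL-15 (10 ng/mL of each) with more IL-2 (50 IU/mL), all ligands of receptors described here. Each recipient, 8 to 12 weeks old, received Thy1.1+ cells into the blood, and at day 7 a sort of 2000 live Thy1.1+ cells from each mouse gave 1 SMART-Seq2 library of 37-base paired reads. The viral promoter of the vector is not specific to a cell type, and the Ly5.1 hosts were not described as lacking T cells of their own.

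Most of these receptors signal through kinases that they do not carry themselves. Ligand brings subunits together, the JAK kinases held on their tails phosphorylate each other and the receptor, and STAT factors bind, are phosphorylated and enter the nucleus. The IL-2 receptor beta chain and the common gamma chain are shared by IL-2 and IL-15, the gamma chain also by IL-4, IL-7, IL-9 and IL-21. IL-12 is bound by Il12rb1 and Il12rb2, and in T cells Il12rb2 is the subunit that recruits STAT4. Receptors for IL-1, IL-18, IL-33 and IL-17 use other adaptors in place of JAKs.

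Several facts of the libraries bear on every value below. Total estimated counts were 10702908 to 34102346 (median 20971113) under the label MIT-BATF and 6534648 to 21355922 (median 12239636) under MIT-Empty. In both groups, the counts of replicate 4 lay inside those of replicate 2 and the counts of replicate 5 inside those of replicate 3, with 0.286% to 0.661% of genes exceeding the containing library against at least 3.54% for the other of 45 pairs. Results are therefore given for the counts as deposited and, for every call and for the members described at length, also with shared counts counted once, that is, after the contained library was subtracted from the containing one. Batf itself was at 21.9 ± 5.54 CPM (counts scaled to a common library size) in the libraries labelled MIT-BATF and 29.2 ± 14.8 CPM in those labelled MIT-Empty (SD, n = 5 each), and did not pass the test (log2 fold change -0.41, edgeR adjusted p = 0.522). Whether transcripts of the vector's BATF insert are counted under Batf is not known, so the groups are named here by their labels. MIT-BATF replicate 1 had 33.2% mitochondrial counts, against 11.5% to 15.1% in the other MIT-BATF libraries and 15.5% to 23.1% in MIT-Empty libraries. With deposited counts it held the highest or lowest value of its group for 19 of the 30 members tested. That was the most of the 10 libraries, ahead of MIT-Empty replicate 4 with 18. Replicate 1 of each group was the only one neither containing nor contained in another, and the tally does not allow for this. The labelled cell type bore its markers: 10 genes of CD8 T cells, Cd3e and Cd8a among them, summed to 3233 to 5252 CPM in MIT-BATF and 3603 to 5854 CPM in MIT-Empty, with none past the edgeR threshold. Melanoma markers summed to 17.4 to 30.6 CPM in MIT-BATF and 41.7 to 1783 CPM in MIT-Empty, and all 6 that could be tested were lower in MIT-BATF (2 of 6 with shared counts counted once). Macrophage and monocyte markers summed to 25.4 to 81.0 CPM in MIT-BATF and 42.4 to 282 CPM in MIT-Empty, with 3 of the 10 tested lower (Lyz2, C1qc and Apoe; with shared counts counted once, Apoe alone of 9) and the defining marker Adgre1 near 0 in MIT-BATF, at a mean of 0.0209 CPM, and at 1.51 CPM in MIT-Empty. B cell markers summed to 34.8 to 57.4 CPM in MIT-BATF and 71.0 to 160 CPM in MIT-Empty, and fibroblast and endothelial markers to 6.95 to 14.1 CPM in MIT-BATF and 16.3 to 107 CPM in MIT-Empty, without overlap. Dendritic cell markers summed to 666 to 763 CPM in MIT-BATF and 638 to 1416 CPM in MIT-Empty. Of the 8 tested, Xcr1 and Itgax were higher in MIT-BATF and H2-Aa and Cd74 lower, all but Itgax also with shared counts counted once. Mast cell, basophil and ILC2 markers summed to 39.2 to 51.9 CPM in MIT-BATF and 22.7 to 40.7 CPM in MIT-Empty. Of the 4 tested, Cpa3 was lower in MIT-BATF (log2 fold change -2.83, edgeR adjusted p = 0.00383) and Kit higher (1.64, edgeR adjusted p = 0.0241). With shared counts counted once, Cpa3 was not tested and Kit was not past the threshold (edgeR adjusted p = 0.119). Erythroid markers reached 489 and 157 CPM in MIT-BATF replicates 2 and 3, against at most 72.9 CPM under MIT-Empty. Their medians were 0.489 CPM (MIT-BATF) and 22.9 CPM (MIT-Empty). Neutrophil markers had medians of 7.02 CPM (MIT-BATF) and 3.27 CPM (MIT-Empty), CD4 and regulatory T cell markers 10.0 and 7.84 CPM. NK cell markers had 60.5 and 76.5 CPM in that order. For these erythroid, neutrophil, CD4 and NK lists, ranges overlapped and no gene passed in edgeR. The part of these cell types in the receptor results was not tested. In sorted bulk cells a different share of another cell type and a different amount of RNA per cell cannot be told apart.

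Set per transcript length, the common gamma chain Il2rg stood first among the 37 genes, at 305 ± 104 TPM (the authors' depth- and length-scaled values summed per gene, SD, n = 5) in MIT-BATF and 259 ± 66.0 TPM in the 5 MIT-Empty libraries. Averaged over the 10 libraries, 8 further members lay between 10 and 100 TPM. These were Il2rb, Ifngr1, Il7r, Il12rb2, Jak1, Il2ra, Ifnar2 and Ifnar1. Another 15 lay between 1 and 10 TPM, and 13 lay under 1 TPM. Il2rb had 72.6 to 133 TPM in MIT-BATF and 60.2 to 101 TPM in MIT-Empty, which overlaps the range of Ifngr1, next in the order, at 71.9 to 133 TPM in MIT-BATF and 49.4 to 79.0 TPM in MIT-Empty. In MIT-BATF libraries Il12rb2 and Il7r had the same median, 46.6 TPM, whereas in MIT-Empty libraries Il12rb2 had a median of 18 TPM and Il7r one of 31.2 TPM.

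**Figure D1:**
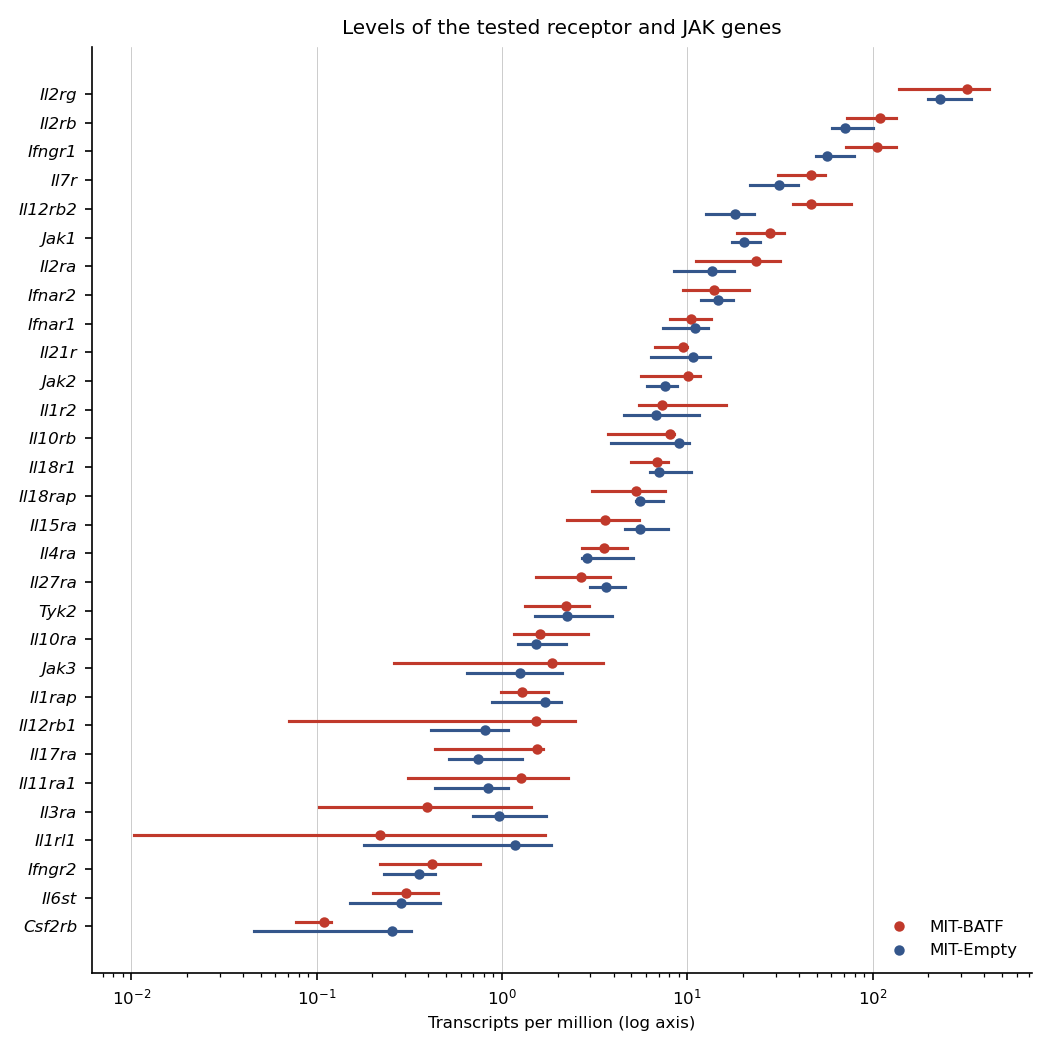
Levels of the 30 members tested, in TPM on a log axis, ordered by their mean over the 10 libraries. Points are medians and lines run from the lowest to the highest of 5 libraries, MIT-BATF above MIT-Empty in each row. For Il12rb2 the line of MIT-BATF starts at 37.2 TPM, above the 23.0 TPM where the line of MIT-Empty ends.

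Of the 30 members that passed the filter on low counts, 3 were past the threshold of adjusted p under 0.05 (10.0%), beside 4.58% of all 11781 genes tested. Il12rb2 and Ifngr1 were higher in MIT-BATF (2 of 30, 6.67%, beside 2.16% of all genes) and Il15ra was lower (1 of 30, 3.33%, beside 2.43% of all genes). With shared counts counted once, 27 members were tested and only Il12rb2 remained past the threshold (3.70%), beside 1.26% of 11131 genes, 0.575% higher and 0.683% lower. Among tested members, the ranges of the groups did not overlap for the same 3 with deposited counts, beside 6.45% of all genes tested. With shared counts counted once they did not overlap for Il12rb2 and Ifngr1, beside 3.19% of all genes tested. The median log2 fold change of the 30 members was 0.03, next to 0.01 over all genes, and 15 of the 30 were above 0. No family moved as a whole: each family's fold changes lay on both sides of 0, except the beta common group, whose 2 tested members were both below 0 without passing the test, and Il17ra, alone in its family. A filter on low counts left 7 members untested (Il13ra1, Il9r, Il6ra, Lifr, Il23r, Csf2rb2 and Il1r1), and their counts are given with their families. Of these, Il9r and Il1r1 did not overlap between groups in CPM with deposited counts, and Il9r alone with shared counts counted once.

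**Figure D2:**
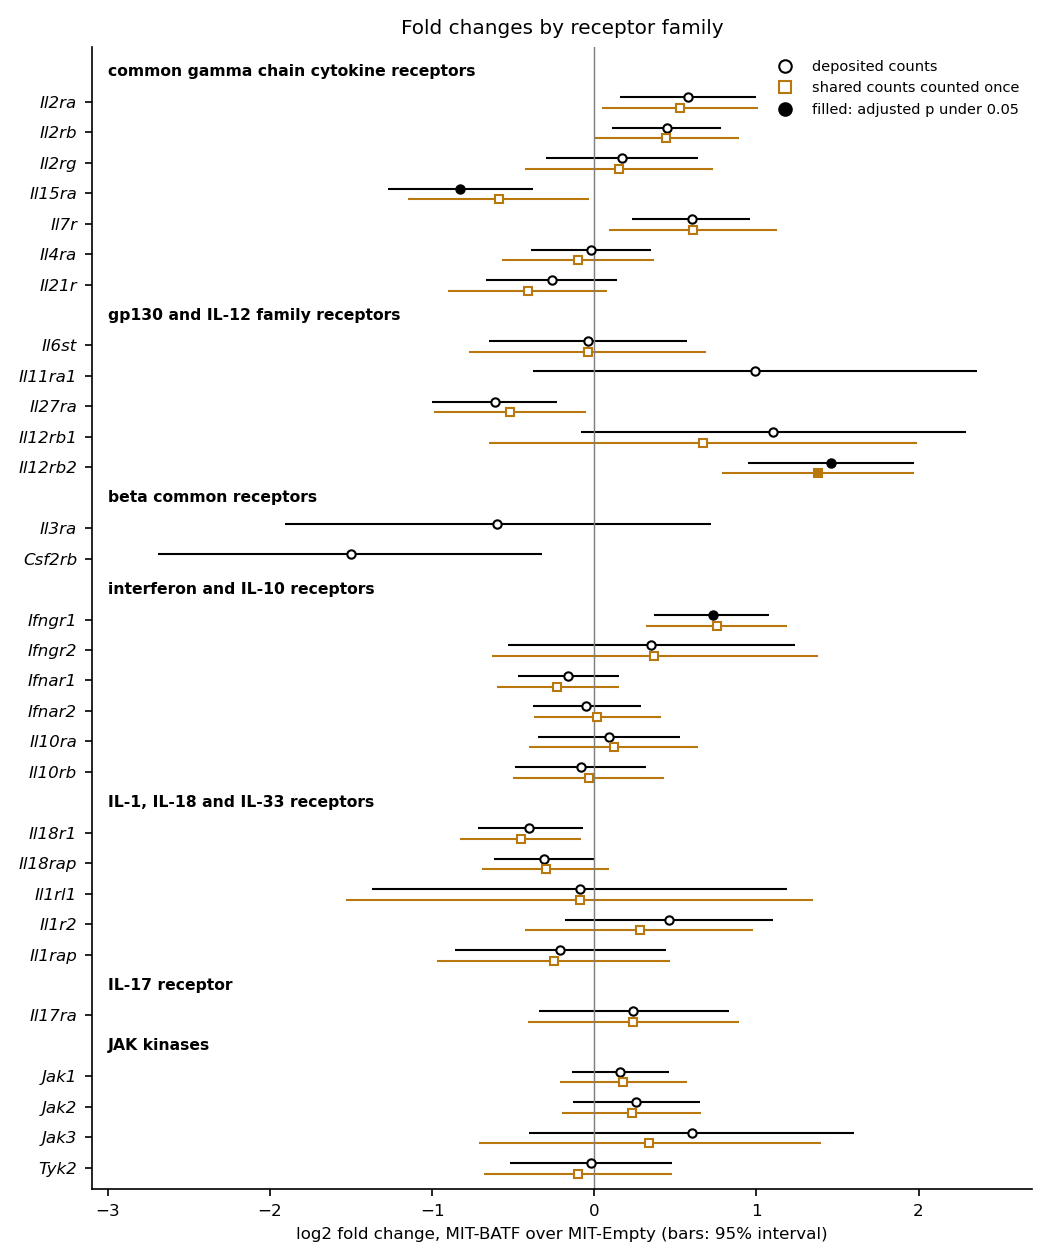
Fold changes of the tested members by family, as log2 of MIT-BATF over MIT-Empty with 95% intervals from edgeR, for deposited counts (circles) and for shared counts counted once (squares). Filled symbols mark an adjusted p under 0.05. Il12rb2 is filled in both, Ifngr1 and Il15ra with deposited counts alone.

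Il12rb2, the IL-12 receptor subunit that recruits STAT4 (ENSMUSG00000018341.12, chromosome 6 from 67291318 to 67376188, GRCm38, minus strand), had the largest fold change of the members past the threshold. It had 458, 220, 176, 217 and 218 CPM in MIT-BATF replicates 1 to 5, against 109, 91.2, 101, 66.6 and 98.4 CPM in MIT-Empty replicates 1 to 5. The groups did not overlap, and MIT-BATF replicate 1 stood far above the other 4. Its log2 fold change was 1.46 (SE 0.24, 95% interval 0.95 to 1.97, edgeR adjusted p = 0.00303). With shared counts counted once it was 1.38 (SE 0.28, edgeR adjusted p = 0.0198), and without MIT-BATF replicate 1 it was 1.16 (SE 0.15, edgeR adjusted p = 0.000946). Each of 10 fits that left out 1 library kept the call, with log2 fold changes of 1.16 to 1.57. With the contained libraries left out, which leaves 3 a group, the log2 fold change was 1.52 and the call was lost (edgeR adjusted p = 0.0603), as it was at 1.71 with the containing libraries left out (edgeR adjusted p = 0.0811).

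Its partner Il12rb1, the chain that binds IL-12 and IL-23 alike, was far scarcer and uneven. It had 0.263, 5.64, 4.24, 9.98 and 4.15 CPM in MIT-BATF replicates 1 to 5, against 1.71, 2.59, 3.32, 1.78 and 1.58 CPM in MIT-Empty replicates 1 to 5. Replicate 1 was the lowest of all 10 libraries and the other MIT-BATF libraries were the highest 4, for a log2 fold change of 1.10 (SE 0.55, edgeR adjusted p = 0.309). With shared counts counted once it was 0.67 (SE 0.62, edgeR adjusted p = 0.817), and MIT-BATF replicate 2, at 2.78 CPM, then lay below MIT-Empty replicate 3, at 5.44 CPM. Without MIT-BATF replicate 1, deposited counts gave 1.4, past the threshold (edgeR adjusted p = 0.0284). In TPM, Il12rb2 exceeded Il12rb1 in every library, 16.8-fold to 1077-fold in MIT-BATF and 11.9-fold to 43.4-fold in MIT-Empty, with the highest ratio in MIT-BATF replicate 1. Il23r, which joins Il12rb1 in the IL-23 receptor and lies 46743 bases from Il12rb2 on the same strand, held 1, 0, 0, 0 and 0 counts in MIT-BATF replicates 1 to 5, against 0, 7, 1, 1 and 0 in MIT-Empty replicates 1 to 5.

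The counts of Il12rb2 fell mainly on a short transcript. The annotation holds a full-length form, Il12rb2-201, with a coding sequence of 2625 bases (874 residues), and a form Il12rb2-202, whose 5′ end lies 36494 bases further into the gene and which codes for 540 residues. It reads from an exon of its own into the eighth exon of the full-length form and shares the last 1619 coding bases with it. The join is printed because it is the place where the coding sequences part, with the shared coding sequence in capitals, read 5′ to 3′ on the minus strand of chromosome 6.
Il12rb2-201: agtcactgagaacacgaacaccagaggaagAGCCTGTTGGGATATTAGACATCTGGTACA
Il12rb2-202: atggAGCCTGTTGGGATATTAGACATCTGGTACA
Salmon assigned 94.5%, 91.6%, 84.9%, 89.2% and 85.1% of the gene's counts to Il12rb2-202 in MIT-BATF replicates 1 to 5, and 91.7%, 84.9%, 87.3%, 85% and 79.1% in MIT-Empty replicates 1 to 5. The short form led in every library of both groups, the ranges overlap, and the shares were not tested. Its 3′ end also runs 700 bases past that of the full-length form, and the deposited values do not tell reads from its start and reads from its end apart.

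Ifngr1, the ligand-binding chain of the interferon gamma receptor (ENSMUSG00000020009.13, chromosome 10 from 19591949 to 19610229, plus strand), was also higher in MIT-BATF. It had 457, 350, 352, 390 and 297 CPM in MIT-BATF replicates 1 to 5, against 192, 211, 249, 178 and 284 CPM in MIT-Empty replicates 1 to 5. The groups did not overlap, though MIT-BATF replicate 5 was close to MIT-Empty replicate 5. Its log2 fold change was 0.73 (SE 0.17, 95% interval 0.37 to 1.08, edgeR adjusted p = 0.0215). It was 0.76 with shared counts counted once, past the threshold no longer (SE 0.20, edgeR adjusted p = 0.0951), and the groups still did not overlap, with 319 to 490 CPM in MIT-BATF and 193 to 306 CPM in MIT-Empty. The call was also lost without MIT-BATF replicate 4 (edgeR adjusted p = 0.0536) and without MIT-Empty replicate 1, 2 or 4 (edgeR adjusted p = 0.0503, 0.0709 and 0.0547), at log2 fold changes of 0.66 to 0.71.

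Ifngr2, the chain that carries JAK2 into the same receptor, was far lower. It had 0.527, 2.96, 2.69, 1.96 and 2.48 CPM in MIT-BATF replicates 1 to 5, against 1.71, 1.93, 1.80, 1.62 and 1.33 CPM in MIT-Empty replicates 1 to 5. MIT-BATF replicate 1 was the lowest library and the other MIT-BATF libraries the highest 4, for a log2 fold change of 0.35 (95% interval -0.53 to 1.24, edgeR adjusted p = 0.723), and 0.37 with shared counts counted once (edgeR adjusted p = 0.885). Ifngr1 exceeded Ifngr2 158-fold to 478-fold in MIT-BATF and 149-fold to 317-fold in MIT-Empty, in TPM.

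Counts of Ifngr1 were split between a coding transcript and a second one annotated as a target of nonsense-mediated decay, the pathway that removes mRNAs with an early stop codon. The second, Ifngr1-203, leaves out the last 14 coding bases of exon 2, which shifts the reading frame so that its annotated coding sequence ends at 228 bases, against 1434 bases (477 residues) in Ifngr1-201. The stretch is shown because nearly all counts of the gene are divided by it, with the 14 bases in capitals, which begin with GT as an intron does, on the plus strand of chromosome 10.
Ifngr1-201: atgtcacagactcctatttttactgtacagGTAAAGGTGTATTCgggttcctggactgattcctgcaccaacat
Ifngr1-203: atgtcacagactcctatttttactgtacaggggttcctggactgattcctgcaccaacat
The coding transcript held 56.0%, 46.9%, 53.4%, 56.8% and 62.0% of the counts in MIT-BATF replicates 1 to 5, and 57.0%, 43.2%, 41.2%, 53.1% and 52.3% in MIT-Empty replicates 1 to 5. The shares overlap between groups. With protein-coding transcripts alone, the log2 fold change of Ifngr1 was 0.90 (SE 0.17, edgeR adjusted p = 0.0116), and 0.96 with shared counts counted once as well (SE 0.26, edgeR adjusted p = 0.128).

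**Figure D3:**
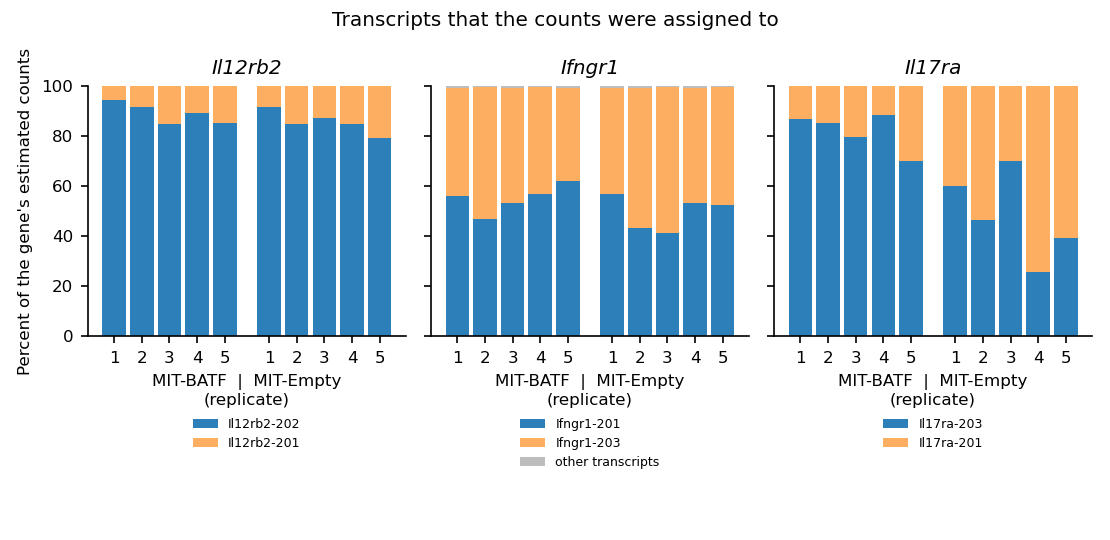
Percent of the estimated counts of Il12rb2, Ifngr1 and Il17ra on each transcript, 1 bar a library, replicates 1 to 5 of MIT-BATF on the left and of MIT-Empty on the right of each panel. For Il17ra the transcript with a retained intron takes 70.2% to 88.6% in MIT-BATF and 25.7% to 70.0% in MIT-Empty.

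Il15ra, which presents IL-15 to the beta and gamma chains (ENSMUSG00000023206.16, chromosome 2 from 11705290 to 11734317, plus strand), was lower in MIT-BATF. It had 9.57, 10.9, 10.2, 7.83 and 6.47 CPM in MIT-BATF replicates 1 to 5, against 13.0, 15, 16.6, 12.9 and 22.2 CPM in MIT-Empty replicates 1 to 5. All 5 MIT-BATF libraries were below all 5 MIT-Empty libraries, with a log2 fold change of -0.83 (SE 0.21, 95% interval -1.27 to -0.38, edgeR adjusted p = 0.0342). With shared counts counted once it was -0.59 (SE 0.26, edgeR adjusted p = 0.429) and the groups overlapped, at 6.95 to 14.1 CPM in MIT-BATF and 11.8 to 23.9 CPM in MIT-Empty. The call was lost without MIT-BATF replicate 2, 3, 4 or 5 (edgeR adjusted p = 0.0515 to 0.0878), without MIT-Empty replicate 2, 3 or 5 (edgeR adjusted p = 0.0733 to 0.106) and with transcript length offsets (log2 fold change -0.68, edgeR adjusted p = 0.0953). Per transcript length the ranges met, at 2.24 to 5.51 TPM in MIT-BATF and 4.64 to 7.90 TPM in MIT-Empty. Its counts were spread over 18 annotated transcripts, and the share on coding ones ran over 37.4% to 92.3% in MIT-BATF and 44.6% to 84.1% in MIT-Empty.

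Set against Il2rb, the chain it presents IL-15 to, Il15ra was at 0.0309 to 0.0413 of the Il2rb level in MIT-BATF and 0.0735 to 0.0967 of it in MIT-Empty, in TPM. These ratios did not overlap, whereas those of 5 other pairs of partner chains (Il12rb2 to Il12rb1, Ifngr1 to Ifngr2, Il2rb to Il2ra, Il18r1 to Il18rap and Il7r to Il2rg) did. As counts with shared counts counted once, the ratio of Il15ra to Il2rb was 0.00968 to 0.0178 in MIT-BATF and 0.0179 to 0.0351 in MIT-Empty, just apart. The pairs were chosen with the values known and the ratios were not tested.

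BATF belongs to the AP-1 family, whose dimers bind the motif TGANTCA. RefSeq promoter windows (GRCm38.p6, 250 bases before to 50 after the start) were matched for 30 of the 37 members, and the motif, read on both strands since it is its own reverse complement, occurred in 1 of the 30, Il15ra, beside 8.97% of 27025 genes. A STAT-type motif, TTCNNNGAA, occurred in 7 of the 30 (Csf2rb2, Ifnar1, Ifnar2, Il12rb2, Il18r1, Il1r2 and Il7r), beside 9.55% of genes. No window was matched for Il2rb, Il27ra, Il12rb1, Csf2rb, Il10ra, Il10rb and Il17ra. The windows of Il15ra (chr2:11705462-11705761, plus strand) and Il12rb2 (chr6:67376139-67376438, minus strand, the start of the full-length transcript) are shown as those of members past the threshold that hold a match, with the match in capitals.
Il15ra: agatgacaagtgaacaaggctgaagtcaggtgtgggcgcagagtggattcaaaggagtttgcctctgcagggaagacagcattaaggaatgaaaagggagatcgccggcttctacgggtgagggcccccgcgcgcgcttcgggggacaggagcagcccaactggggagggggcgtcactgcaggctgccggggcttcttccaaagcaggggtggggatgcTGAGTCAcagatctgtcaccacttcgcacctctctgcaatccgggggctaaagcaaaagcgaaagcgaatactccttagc
Il12rb2: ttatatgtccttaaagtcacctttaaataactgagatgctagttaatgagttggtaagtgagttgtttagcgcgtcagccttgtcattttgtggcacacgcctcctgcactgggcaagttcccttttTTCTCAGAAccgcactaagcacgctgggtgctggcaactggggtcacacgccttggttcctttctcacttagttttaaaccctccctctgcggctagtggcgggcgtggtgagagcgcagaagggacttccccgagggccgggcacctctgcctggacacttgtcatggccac
A match describes letters in these windows, and binding was not measured.

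The signaling chains of the IL-2 and IL-15 receptors and the IL-7 receptor lay above MIT-Empty on average without passing the test. Il2rb had 793, 763, 695, 809 and 601 CPM in MIT-BATF replicates 1 to 5, against 500, 504, 625, 424 and 634 CPM in MIT-Empty replicates 1 to 5. Only MIT-BATF replicate 5 fell within the range of MIT-Empty. The log2 fold change of Il2rb was 0.45 (SE 0.16, edgeR adjusted p = 0.133), and 0.44 with shared counts counted once (edgeR adjusted p = 0.478).

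Il2ra, the alpha chain that gives the IL-2 receptor its high affinity, had 95.2, 180, 148, 156 and 148 CPM in MIT-BATF replicates 1 to 5, against 109, 114, 89.4, 113 and 61.7 CPM in MIT-Empty replicates 1 to 5. Replicates 2 to 5 of MIT-BATF lay above every MIT-Empty library and replicate 1 did not. Il2ra had a log2 fold change of 0.58 (SE 0.20, edgeR adjusted p = 0.12), and 0.53 with shared counts counted once (SE 0.23, edgeR adjusted p = 0.396). Without MIT-BATF replicate 1, deposited counts gave 0.71, past the threshold (edgeR adjusted p = 0.0284). Il2rg, the common gamma chain itself, had 468, 740, 878, 939 and 1028 CPM in MIT-BATF replicates 1 to 5, against 589, 675, 768, 565 and 1009 CPM in MIT-Empty replicates 1 to 5. The ranges were nearly the same, with MIT-BATF replicate 1 the lowest library (log2 fold change 0.17, 95% interval -0.30 to 0.64, edgeR adjusted p = 0.754).

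Il7r, the receptor chain for the survival cytokine IL-7, had 259, 263, 186, 306 and 207 CPM in MIT-BATF replicates 1 to 5, against 152, 169, 148, 131 and 208 CPM in MIT-Empty replicates 1 to 5. MIT-Empty replicate 5 was the only one to reach into the MIT-BATF range. Il7r had a log2 fold change of 0.60 (SE 0.17, edgeR adjusted p = 0.06), past the threshold without MIT-BATF replicate 3 (0.68, edgeR adjusted p = 0.0423) or without MIT-Empty replicate 5 (0.72, edgeR adjusted p = 0.0287), and 0.61 with shared counts counted once (edgeR adjusted p = 0.33). The full-length transcript Il7r-201 took 45.5% to 93.7% of its counts in MIT-BATF and 44.6% to 94.4% in MIT-Empty, swinging between libraries of 1 group, so its split with the shorter Il7r-204 is uncertain.

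**Figure D4:**
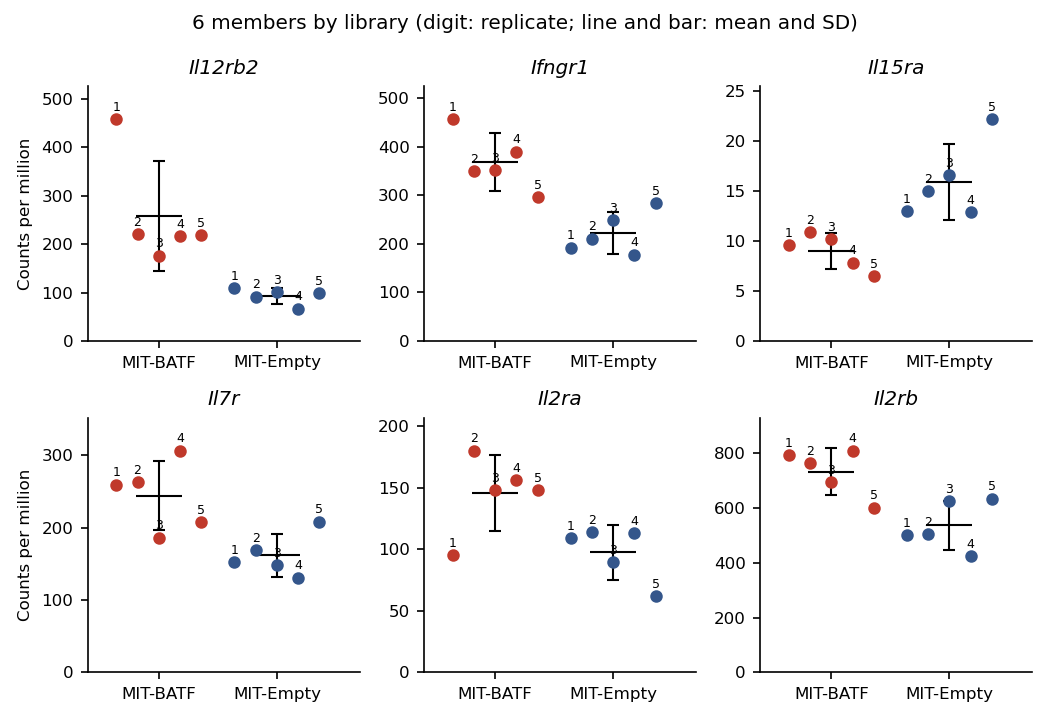
CPM in each library for 6 members, with the replicate number above each point and the mean with its SD (n = 5) as a line and bar. MIT-BATF is on the left of each panel. The groups do not overlap for Il12rb2, Ifngr1 and Il15ra, and overlap for Il7r, Il2ra and Il2rb.

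Il21r, the receptor for IL-21, a cytokine of helper T cells, had 28 to 41.0 CPM (median 29.0) in MIT-BATF and 22.5 to 47.1 CPM (median 42.1) in MIT-Empty. Its log2 fold change was -0.26 (95% interval -0.67 to 0.14, edgeR adjusted p = 0.518; -0.41 with shared counts counted once, edgeR adjusted p = 0.601), and the lowest MIT-Empty library, replicate 4 at 22.5 CPM, lay far from the other 4. Il4ra, the IL-4 receptor alpha chain, had 19.6 to 24.0 CPM in MIT-BATF and 16.3 to 31.6 CPM in MIT-Empty (log2 fold change -0.02, 95% interval -0.39 to 0.35, edgeR adjusted p = 0.976). Of its counts, 53.9% to 67.4% in MIT-BATF and 24.1% to 80.2% in MIT-Empty were assigned to a transcript annotated as a decay target, Il4ra-205.

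The other chains of this group were at the edge of detection. Il9r, the IL-9 receptor, held 2, 1, 1, 0 and 0 counts in MIT-BATF replicates 1 to 5, against 11, 17, 14, 6 and 5 in MIT-Empty replicates 1 to 5, although the MIT-BATF libraries were the deeper group. Il13ra1, a chain of the IL-13 receptor that is typical of myeloid and other non-T cells, held 0, 1, 0, 1 and 0 counts in MIT-BATF, against 16, 17, 5, 12 and 0 in MIT-Empty. Both were removed by the filter and are not among the genes tested. With shared counts counted once, the groups still did not overlap for Il9r, at 0 to 0.188 CPM in MIT-BATF and 0.446 to 1.45 CPM in MIT-Empty, while those of Il13ra1 overlap at 0 in MIT-Empty replicate 5. Marker sums of melanoma, macrophages, B cells, fibroblasts and endothelium, and mast cells are given above. The ranges of the macrophage and mast cell sums overlap between groups. The macrophage sum had the higher median in MIT-Empty (113 CPM, against 40.6 CPM in MIT-BATF). The mast cell sum had it in MIT-BATF (46.4 CPM, against 34.3 CPM in MIT-Empty). The part of these cells in these counts was not tested.

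Among the gp130 group, Il27ra, the receptor chain for IL-27, came closest to the threshold after Il12rb2. It had 7.76 to 12.6 CPM (median 10.6) in MIT-BATF and 12.6 to 19.2 CPM (median 16.3) in MIT-Empty, ranges that meet at MIT-BATF replicate 2 and MIT-Empty replicate 4. Il27ra had a log2 fold change of -0.61 (SE 0.18, edgeR adjusted p = 0.0672), and -0.52 with shared counts counted once (edgeR adjusted p = 0.377). Il6st, which encodes the shared chain gp130, had 3.33 to 4.62 CPM in MIT-BATF and 2.57 to 5.53 CPM in MIT-Empty (log2 fold change -0.04, 95% interval -0.65 to 0.57, edgeR adjusted p = 0.97). Il11ra1 had 0.162 to 2.63 CPM in MIT-BATF and 0.409 to 0.857 CPM in MIT-Empty, with an interval of -0.38 to 2.36 around its log2 fold change of 0.99 (edgeR adjusted p = 0.461), and transcripts with a retained intron took 41.1% to 100% of its counts in MIT-BATF and 75.7% to 100% in MIT-Empty. Il6ra, the IL-6 receptor alpha chain, held 2 to 9 counts a library in MIT-BATF and 0 to 6 in MIT-Empty, and Lifr, the receptor for leukemia inhibitory factor, 0 to 4 in MIT-BATF and 2 to 12 in MIT-Empty.

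Receptors of the beta common group, through which IL-3 and GM-CSF act mainly on myeloid cells, were low throughout. Csf2rb, the shared beta chain, held 4, 15, 16, 3 and 8 counts in MIT-BATF replicates 1 to 5, against 14, 21, 28, 13 and 2 in MIT-Empty replicates 1 to 5. With deposited counts, the MIT-Empty libraries other than replicate 5 were above every MIT-BATF library in CPM. Its log2 fold change was -1.50 (SE 0.56, 95% interval -2.69 to -0.32, edgeR adjusted p = 0.156). Csf2rb was not tested with shared counts counted once, where MIT-BATF replicate 2, at 0.902 CPM, lay above MIT-Empty replicate 2, at 0.647 CPM. Il3ra had 0.0878 to 1.37 CPM in MIT-BATF and 0.485 to 2.18 CPM in MIT-Empty (log2 fold change -0.60, edgeR adjusted p = 0.677). Csf2rb2, a mouse copy of Csf2rb for IL-3 that lies 20030 bases from it, held 2 to 6 counts in MIT-BATF and 2 to 15 in MIT-Empty, and reads shared by these near-identical copies were divided by Salmon's estimate, which leaves each level uncertain.

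The type I interferon and IL-10 receptors differed little between the groups. Ifnar1 had 50.4 to 57.3 CPM (median 54.5) in MIT-BATF and 44.0 to 76.3 CPM (median 61.3) in MIT-Empty, with a log2 fold change of -0.16 (95% interval -0.47 to 0.15, edgeR adjusted p = 0.629). Ifnar2 had 21.9 to 30.1 CPM in MIT-BATF and 21.8 to 33.7 CPM in MIT-Empty (log2 fold change -0.05, 95% interval -0.38 to 0.29, edgeR adjusted p = 0.92). A short coding transcript, Ifnar2-203, took 78.9% to 81.1% of its counts in MIT-BATF and 80.1% to 87.7% in MIT-Empty. It has 744 coding bases before the stop codon, against 1539 in Ifnar2-201, and in mice a truncated soluble form of this receptor is known. Il10ra, the ligand-binding chain of the IL-10 receptor, had 8.08 to 13.7 CPM in MIT-BATF and 7.59 to 12 CPM in MIT-Empty (log2 fold change 0.09, 95% interval -0.35 to 0.53, edgeR adjusted p = 0.881). Its partner Il10rb had 10.0 to 18.9 CPM in MIT-BATF and 12.5 to 19.8 CPM in MIT-Empty (log2 fold change -0.08, 95% interval -0.49 to 0.32, edgeR adjusted p = 0.872).

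Both chains of the IL-18 receptor leaned lower in MIT-BATF without passing the test. Il18r1, the binding chain, had 27.0, 28.3, 25.8, 33.5 and 25.8 CPM in MIT-BATF replicates 1 to 5, against 29.0, 36.3, 43.8, 31.0 and 43.8 CPM in MIT-Empty replicates 1 to 5. MIT-BATF replicate 4 was the only MIT-BATF library inside the MIT-Empty range (log2 fold change -0.40, SE 0.15, edgeR adjusted p = 0.181, and -0.45 with an edgeR adjusted p of 0.32 with shared counts counted once). Il18rap, the accessory chain, had 35.8 to 53.6 CPM in MIT-BATF and 53.0 to 64.4 CPM in MIT-Empty (log2 fold change -0.31, SE 0.14, edgeR adjusted p = 0.272, and -0.30 with an edgeR adjusted p of 0.657 with shared counts counted once). In TPM the ratio of Il18r1 to Il18rap was 1.04 to 1.62 in MIT-BATF and 1.18 to 1.58 in MIT-Empty, so the chains were close to even in both groups.

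Il1r2, the decoy receptor that binds IL-1 without signaling, had 13.1 to 32.3 CPM (median 18.2) in MIT-BATF and 7.11 to 20.5 CPM (median 14.7) in MIT-Empty, with a log2 fold change of 0.46 (95% interval -0.18 to 1.10, edgeR adjusted p = 0.462), and of 0.28 with shared counts counted once (edgeR adjusted p = 0.876). Its signaling counterpart Il1r1 held 0, 2, 2, 1 and 2 counts in MIT-BATF replicates 1 to 5 and 2, 8, 11, 7 and 3 in MIT-Empty replicates 1 to 5, and did not pass the filter on low counts. Il1rap, the accessory chain for IL-1 and IL-33, had 6.72 to 18.3 CPM in MIT-BATF and 7.37 to 16.9 CPM in MIT-Empty (log2 fold change -0.21, 95% interval -0.86 to 0.44, edgeR adjusted p = 0.786). Il1rl1, the IL-33 receptor, had 0.0979 to 2.72 CPM in MIT-BATF and 0.323 to 3.40 CPM in MIT-Empty (log2 fold change -0.09, 95% interval -1.37 to 1.19, edgeR adjusted p = 0.963). The ends of Il1rl1 and Il18r1 lie 136 bases apart on the same strand of chromosome 1.

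Il17ra, the shared chain of the IL-17 receptors (chromosome 6 from 120463247 to 120487559, plus strand), was at similar levels as a whole and at different ones by transcript. It had 9.30, 11.6, 10.4, 14 and 4.74 CPM in MIT-BATF replicates 1 to 5, against 12.5, 8.12, 8.06, 7.43 and 6.22 CPM in MIT-Empty replicates 1 to 5 (log2 fold change 0.24, 95% interval -0.34 to 0.83, edgeR adjusted p = 0.713). Its counts fell on a coding transcript, Il17ra-201, and on Il17ra-203, which keeps an intron and has no annotated coding sequence. The coding transcript took 13.2%, 14.8%, 20.3%, 11.4% and 29.8% in MIT-BATF replicates 1 to 5, against 39.8%, 53.6%, 30%, 74.3% and 60.8% in MIT-Empty replicates 1 to 5. All 5 MIT-BATF shares were below all 5 MIT-Empty shares, though the closest of them nearly meet. The ranges overlapped with shared counts counted once, at 11.4% to 29.8% in MIT-BATF and 11.1% to 74.3% in MIT-Empty. In a fit of protein-coding transcripts alone, Il17ra was lower in MIT-BATF (log2 fold change -1.37, SE 0.34, edgeR adjusted p = 0.0399), and with shared counts counted once as well it was not past the threshold (-1.15, edgeR adjusted p = 0.374). That fit was added after the transcript values had been seen. The mean coding shares were 17.9% ± 7.43 (SD, n = 5) in MIT-BATF and 51.7% ± 17.4 (SD, n = 5) in MIT-Empty.

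The 4 JAK kinases did not pass the test in either direction, and 0 had an unadjusted p under 0.05 in edgeR or a call in DESeq2 or limma voom. Jak1, which serves the common gamma chain, gp130 and interferon receptors, had 248, 232, 203, 215 and 158 CPM in MIT-BATF replicates 1 to 5, against 187, 192, 199, 192 and 174 CPM in MIT-Empty replicates 1 to 5. It was the most abundant JAK in TPM, at 27.5 ± 6.24 (SD, n = 5) in MIT-BATF and 20.8 ± 2.69 (SD, n = 5) in MIT-Empty, with a log2 fold change of 0.16 (95% interval -0.14 to 0.46, edgeR adjusted p = 0.607). Jak2, the kinase of the interferon gamma and IL-12 receptors, had 61.5 to 122 CPM in MIT-BATF and 61.6 to 86.0 CPM in MIT-Empty (log2 fold change 0.26, 95% interval -0.13 to 0.65, edgeR adjusted p = 0.501). Jak3, the partner of the common gamma chain, had 1.4, 10.7, 6.91, 17.9 and 6.04 CPM in MIT-BATF replicates 1 to 5, against 6.0, 3.70, 8.51, 3.07 and 6.55 CPM in MIT-Empty replicates 1 to 5. MIT-BATF held both the lowest and the highest value, so the interval was wide (log2 fold change 0.60, 95% interval -0.40 to 1.60, edgeR adjusted p = 0.558), and with shared counts counted once it was 0.34 (edgeR adjusted p = 0.902). Tyk2, the kinase of Il12rb1 and Ifnar1, had 5.88 to 11.6 CPM in MIT-BATF and 7.14 to 13.9 CPM in MIT-Empty (log2 fold change -0.02, 95% interval -0.52 to 0.48, edgeR adjusted p = 0.979). Transcripts with a retained intron took 42.2% to 100% of the counts of Tyk2 in MIT-BATF and 28.9% to 95.4% in MIT-Empty.

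Genes downstream of these receptors moved in few cases. None of the 7 STAT factors passed the test in edgeR, and 0 had an unadjusted p under 0.05, with log2 fold changes of -0.13 to 0.32 and a median of 0.14. Among 19 negative regulators, 2 were higher in MIT-BATF, Cish and Usp18, beside 2.16% of all genes, and 1 with shared counts counted once, Usp18, beside 0.575% of all genes. Cish, which STAT5 induces and which blocks STAT5 binding to receptors, had 56.1, 120, 119, 90.6 and 74.8 CPM in MIT-BATF replicates 1 to 5, against 52.0, 48.9, 50.7, 46.5 and 39.2 CPM in MIT-Empty replicates 1 to 5. With deposited counts the groups did not overlap, with MIT-BATF replicate 1 closest to MIT-Empty (log2 fold change 0.96, SE 0.20, edgeR adjusted p = 0.0119, and 1.04 with an edgeR adjusted p of 0.0668 once shared counts were counted once). The groups then overlapped, at 60.2 CPM in MIT-BATF replicate 1 and 66.0 CPM in MIT-Empty replicate 3. Usp18, which binds Ifnar2 and dampens type I interferon signaling, had 13.8, 22.5, 29.1, 19.9 and 24.6 CPM in MIT-BATF replicates 1 to 5, against 5.51, 6.29, 3.89, 7.11 and 4.48 CPM in MIT-Empty replicates 1 to 5. It kept its call with shared counts counted once (log2 fold change 2.03, edgeR adjusted p = 0.000227, then 2.14, edgeR adjusted p = 0.00113). Of 7 adaptors of the IL-1 group, 6 were tested and 0 passed in edgeR, with 0 at an unadjusted p under 0.05. Of 30 other genes listed as receptor and accessory genes, 8 were tested in edgeR and 0 passed, with 3 at an unadjusted p under 0.05 (Il1rl2, Csf1r and Crlf2). Il12b, which encodes a cytokine subunit, was in that list and was not tested.

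Ligands of these receptors were measured in the same cells. Of 28 ligand genes, 13 were tested and 3 were lower in MIT-BATF, beside 2.43% of all genes, and with shared counts counted once 2 of 11 were lower, beside 0.683% of all genes. Csf2, which encodes the GM-CSF that signals through Csf2rb, had 2.90, 4.78, 2.85, 3.82 and 2.80 CPM in MIT-BATF replicates 1 to 5, against 12.2, 11.4, 10.1, 11.6 and 5.31 CPM in MIT-Empty replicates 1 to 5. The groups did not overlap with deposited counts. The call held with shared counts counted once, where MIT-BATF replicate 2, at 5.94 CPM, lay above MIT-Empty replicate 5, at 5.71 CPM (log2 fold change -1.56, edgeR adjusted p = 0.00404, then -1.63, edgeR adjusted p = 0.0182). Il10 and Il1b, which macrophages also make, were lower at log2 fold changes of -3.35 (edgeR adjusted p = 0.0208) and -2.45 (edgeR adjusted p = 0.0263). Il10 was not tested with shared counts counted once, where Il1b was at -2.97 (edgeR adjusted p = 0.0465). Ifng, the ligand of Ifngr1, had 101 to 338 CPM in MIT-BATF and 107 to 487 CPM in MIT-Empty (log2 fold change -0.22, edgeR adjusted p = 0.816). Il2, the ligand of the Il2rb receptors, had 3.08 to 27.8 CPM in MIT-BATF and 0.122 to 19.9 CPM in MIT-Empty (log2 fold change 1.01, edgeR adjusted p = 0.534).

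Many members lie beside each other in the genome. On chromosome 2, Il15ra starts 12096 bases past the end of Il2ra, and their log2 fold changes were -0.83 and 0.58. On chromosome 16, Ifnar2, Il10rb, Ifnar1 and Ifngr2 follow each other on the plus strand, with log2 fold changes of -0.05, -0.08, -0.16 and 0.35. On chromosome 1, where Il1r1 was not tested, Il1r2, Il1rl1, Il18r1 and Il18rap were at 0.46, -0.09, -0.40 and -0.31. These values are set side by side with no test.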

How the data were processed

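SMART-Seq2 libraries of 10 mice were sequenced by the authors and processed through nf-core/rnaseq on mm10, with Salmon named in the processing notes (version: not given in the sources used here). Files deposited by the authors hold estimated counts and TPM for 112092 transcripts, 305 of them with no match in GENCODE M21. Groups and replicate numbers came from the labels. Estimated counts were summed per gene, rounded and tested with edgeR 4.0.16 in R 4.3.3 (quasi-likelihood, TMM, filterByExpr, condition only), with p-values adjusted after Benjamini and Hochberg across every tested gene and called under 0.05. CPM use TMM-scaled library sizes. DESeq2 1.42.0 and limma 3.58.1 (voom) were alternatives. The edgeR fit was tested on simulated libraries that shared no counts, so the test does not bear on deposited counts, where some libraries contain others. P-values from deposited counts rest on libraries that are not all separate, and the fits with shared counts counted once subtract the contained libraries. The fits of protein-coding transcripts, and those with shared counts counted once that add the replicate block or leave out MIT-BATF replicate 1, were chosen after seeing the data. The authors' TPM served for levels and ratios between genes. Strand is not marked by the protocol, so overlapping genes cannot be told apart, and 37-base reads leave transcript shares uncertain. Members and lists were chosen with earlier results of these data known. Named genes were all members, pathway genes past the threshold, Batf and marker sums. Ifng and Il2 were named after their values were seen.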

Additional observations from a re-analysis of the deposited data

Results flagged for a closer look

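Groups of 5 libraries were screened for a highest or lowest value set apart from the rest by more than 0.71 of the group's range, for the 30 tested members in both groups. Of 60 such groups, 4 were set apart, where chance gives about 1 in 20 for separate libraries. The screen used deposited counts, in which some libraries of a group contain others, so that rate does not apply as it stands. Il12rb2 in MIT-BATF replicate 1, at 458 CPM, was the highest of its group by 0.844 of the range, and Il1rap in the same library, at 18.3 CPM, was the highest by 0.786 of the range. Il4ra in MIT-BATF replicate 5, at 19.6 CPM, and Il21r in MIT-Empty replicate 4, at 22.5 CPM, were the lowest of their groups. MIT-BATF replicate 1 also had the highest share of mitochondrial counts, and MIT-Empty replicate 4 the smallest total and the largest sum of melanoma markers, 1783 CPM. The part of these in the values was not tested.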

How the results depend on the processing

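The count of members past the threshold was 3 with deposited counts. It was 1 with shared counts counted once, with the replicate block, with the block and shared counts counted once, with shared counts counted once without MIT-BATF replicate 1, and with protein-coding transcripts only and shared counts counted once. It was 2 with shared counts counted once in DESeq2 and with transcript length offsets, 0 without the contained and without the containing libraries, 6 with DESeq2 and with no filter on low counts, and 7 with limma voom. Without 1 library at a time it was 1 to 6, lowest without MIT-Empty replicate 2 and highest without MIT-BATF replicate 1. The count over all genes was 540 with deposited counts, 140 with shared counts counted once (291 with DESeq2), 916 with DESeq2, 1336 with limma voom, 903 with no filter, 96 without the contained and 15 without the containing libraries, 173 with the replicate block and shared counts counted once, 138 with shared counts counted once without MIT-BATF replicate 1, 101 with protein-coding transcripts only and shared counts counted once, and 289 to 772 without 1 library at a time. The cause of these differences was not tested, and fits that leave libraries out also rest on fewer of them. DESeq2 added Il2rb, Il7r and Il27ra to the calls, and limma voom added these and Il2ra.

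The replicate block left 474 genes and 1 member called. Same-numbered libraries deviated together at correlations of -0.06 to 0.28 with deposited counts and -0.11 to 0.42 with shared counts counted once, and 4 of 10 libraries were closest to their own number with deposited counts, so the numbers were not taken to pair the mice.

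Directions that turned were of log2 fold changes near 0, apart from Il11ra1 (0.99 with deposited counts, -0.39 with limma voom) and Il17ra (-1.37 with protein-coding transcripts only, -1.15 with shared counts counted once as well). Ifnar2 was at 0.01 with limma voom and with no filter, 0.02 with shared counts counted once (in edgeR, in DESeq2 and with protein-coding transcripts only), 0.03 with the replicate block as well, and 0.08 without MIT-BATF replicate 1 as well. Il10ra was at -0.23 with protein-coding transcripts only and -0.24 with shared counts counted once as well, and Il10rb at 0.07 in the second of these and at 0.09 with shared counts counted once without MIT-BATF replicate 1. Il1rl1 was at 0.08 without the contained and 0.23 without the containing libraries. Il4ra was at 0.03 with no filter, 0.01 with the replicate block, 0.09 with transcript length offsets and 0.14 without the containing libraries. Il6st was at 0.02 with no filter, 0.01 with the replicate block, alone or with shared counts counted once, 0.03 with shared counts counted once without MIT-BATF replicate 1, 0.16 with transcript length offsets, 0.06 without the contained and 0.01 without the containing libraries. Tyk2 was at 0.04 with no filter and 0.03 with shared counts counted once without MIT-BATF replicate 1. Leaving out 1 library at a time also turned some directions, with ranges of -0.11 to 0.07 for Ifnar2, -0.04 to 0.17 for Il10ra, -0.17 to 0.04 for Il10rb, -0.32 to 0.32 for Il1rl1, -0.11 to 0.13 for Il4ra, -0.15 to 0.11 for Il6st and -0.10 to 0.12 for Tyk2.

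Depth limits the 7 untested members, whose counts reached at most 17 in a library (the calls of Il9r and Il13ra1 without the filter rest on 0 to 2 counts a library in MIT-BATF). For tested members that did not pass, the intervals given rest on deposited counts, where contained libraries are taken as separate. They do not bound the change. That of Il2rg was -0.30 to 0.64, and -0.43 to 0.73 with shared counts counted once.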
